A study of Danio rerio with 28 samples.

Results

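The EGF family of ligands and their ErbB receptors was followed through biliary-driven regeneration of the zebrafish liver, to ask which cells carried ligand mRNA and which carried receptor mRNA at each time. The members were 10 genes, taken by name and whatever their values: the ligands *hbegfa*, *hbegfb*, *tgfa*, *egf* and *nrg1*, and the receptors *egfra*, *erbb2*, *erbb3a*, *erbb3b* and *erbb4a*. They are 10 of the 27652 genes in the single-cell count matrices, and all 10 had a row. The files give gene symbols only.

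EGF family ligands are made as membrane proteins and are cut loose by ADAM proteases, after which they bind and pair ErbB receptors on the same or a neighbouring cell and switch on the RAS/ERK and PI3K pathways. In mammals, HB-EGF binds EGFR and ERBB4, TGFA and EGF bind EGFR, and NRG1 binds ERBB3 and ERBB4. ERBB2 has no known ligand of its own and serves as the favoured partner of the others, whereas ERBB3 has little kinase activity and signals through its partner. EGFR ligands are known mitogens of mammalian hepatocytes.

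Livers were dissociated and run on Drop-seq, which tags each mRNA with a unique molecular identifier (UMI). Of the 28 libraries, 22 came from sorted cells of adults carrying the reporter Tg(-3.5ubb:LOXP-EGFP-LOXP-mCherry), the driver Tg(Tp1:CreERT2) and the ablation transgene Tg(fabp10a:CFP-NTR), in which 4-OHT given to larvae marked cells with an active Notch-responsive Tp1 element, mainly biliary epithelial cells (BECs), with mCherry. Metronidazole (5 mM, 16 h) kills hepatocytes through the fabp10a-driven nitroreductase. mCherry+ cells were sorted from uninjured fish, from mock-treated fish of the same genotype and after ablation, on day 0, day 1, day 2, day 3 and day 7 (days post ablation, dpa), with 3 libraries per condition, and 1 further library held GFP+ cells of uninjured fish. The other 6 libraries held all cells of uninjured livers of the wild-type TU strain. All fish were adults of 6 to 18 months. The sources used here do not say how many fish stand behind a library, so the p-values measure the spread between libraries, which may be technical.

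Each library held 5000 barcodes and 926798 to 7296066 UMIs. Barcodes above the mean total of their library were called cells, which gave 25842 cells, of which 20917 were named from marker genes and 4925 stayed unnamed. The median UMI count per cell was 1053.5 to 1162 in uninjured libraries, 435 to 486 in mock libraries and 596 to 600 in libraries of 0 dpa, and lay between 1689 and 4038.5 in every library of a later time. Levels are therefore given as CPM, the UMIs of a gene per 1000000 UMIs of the cells of one type in one library. With them goes the level of the same gene in the barcodes below the cutoff (outside cells), which include free RNA. The cutoff was 185 to 207 UMIs in mock but 1158 to 1379 UMIs at 3 dpa, above the median mock cell. Outside barcodes may therefore hold small cells too, and their level is not one yardstick across conditions. The sort was not pure: BEC-like cells (called BECs below, as the other types are called by name) numbered 970 in uninjured and 485 in mock libraries, 585 on day 0, 892 on day 1, 1168 on day 2, 227 on day 3 and 67 on day 7, and macrophages, neutrophils, lymphocytes and thrombocytes were also captured. The BEC markers were well represented in the BECs of mock (14477 CPM over the 7 markers, against 2193 CPM for the 8 hepatocyte markers), but cells named BECs at 3 dpa carried more hepatocyte than BEC marker UMIs (21795 against 12889 CPM), as did those of the whole-liver libraries (21280 against 13724 CPM), so that values at 3 dpa belong to cells of mixed marker profile. Mock libraries were the shallowest and serve as the reference of most tests, and their BECs held 6 *egfra* and 6 *nrg1* UMIs in all.

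The ligand *hbegfa*, 1 of the 2 zebrafish HB-EGF genes, gave 13337 of the members' UMIs in called cells, against 1172 for *hbegfb* and 735 for *nrg1*. The receptors *erbb2*, *erbb3b*, *erbb3a* and *egfra* gave 904, 852, 601 and 269 UMIs, and *erbb4a* gave 135. The other ligands were hardly detected, with 58 UMIs of *egf* in 23 libraries and 15 UMIs of *tgfa* in 9 libraries. In BECs, *egf* did not exceed 3 UMIs in any condition and *tgfa* was seen in mock only, with 2 UMIs. The 0 *tgfa* UMIs in BECs at 0 dpa allow a level of up to 5.53 CPM and those at 2 dpa up to 0.538 CPM, counting error only. These totals are counts of detected molecules and are not corrected for how well each mRNA is captured.

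BECs at the end of ablation carried more *hbegfa* than mock BECs. *hbegfa* stood at 1172, 1222 and 1149 CPM in the 3 libraries of 0 dpa BECs, against 370, 660 and 363 CPM in mock BECs. It was 796, 694 and 789 CPM at 1 dpa, 434, 542 and 407 CPM at 2 dpa, 409, 308 and 356 CPM at 3 dpa and 101, 201 and 274 CPM at 7 dpa. Uninjured BECs held 229, 268 and 267 CPM. Every 0 dpa library lay above every library of any other time, and the 1 dpa libraries lay above all mock libraries, while the 2 dpa libraries overlapped with mock and the uninjured libraries lay below mock. Outside cells held 153 to 283 CPM at 0 dpa, against 69.9 to 84.3 CPM in mock, and BECs exceeded the outside level of their own library in every library of every condition, by 1.21 to 8.80 times.

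Tested with edgeR's quasi-likelihood method, with p-values adjusted by Benjamini-Hochberg over 16034 genes, *hbegfa* was higher in 0 dpa than in mock BECs by 1.41 on the log2 scale (SE 0.15, adjusted p = 9.2e-19). Of the 8 members that passed the abundance filter (all but *egf* and *tgfa*), 2 were called in this comparison, *hbegfa* and *nrg1*, both higher, where 6.75% of all genes were called and 3.53% were called higher. *hbegfa* was then lower at 1 dpa than at 0 dpa by 1.13 (log2 change -1.13, SE 0.11, adjusted p = 6e-23), where the median gene changed by -0.44, library-size scaling gave -0.63 and default TMM -0.42 (adjusted p = 0.0057). It was also lower at 2 dpa than at 1 dpa (-0.80, SE 0.09, adjusted p = 1.1e-15), while the difference of 3 dpa from 2 dpa was -0.04 (adjusted p = 0.89). Between 1 dpa and 0 dpa 4 members were called, all lower (*hbegfa*, *hbegfb*, *nrg1* and *erbb4a*, the last on 1 UMI against 4 and lost under several alternatives, default TMM among them), against 14.4% of all genes called and 11.9% called lower, and the shares of genes called were 16.9% for 2 dpa against 1 dpa and 8.71% for 3 dpa against 2 dpa. Uninjured BECs were lower in *hbegfa* than mock BECs (-0.83, SE 0.17, adjusted p = 5.3e-05), a call that was lost with default TMM (-0.45, adjusted p = 0.11) and without mock replicate 2 (-0.49, adjusted p = 0.19).

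**Figure D1:**
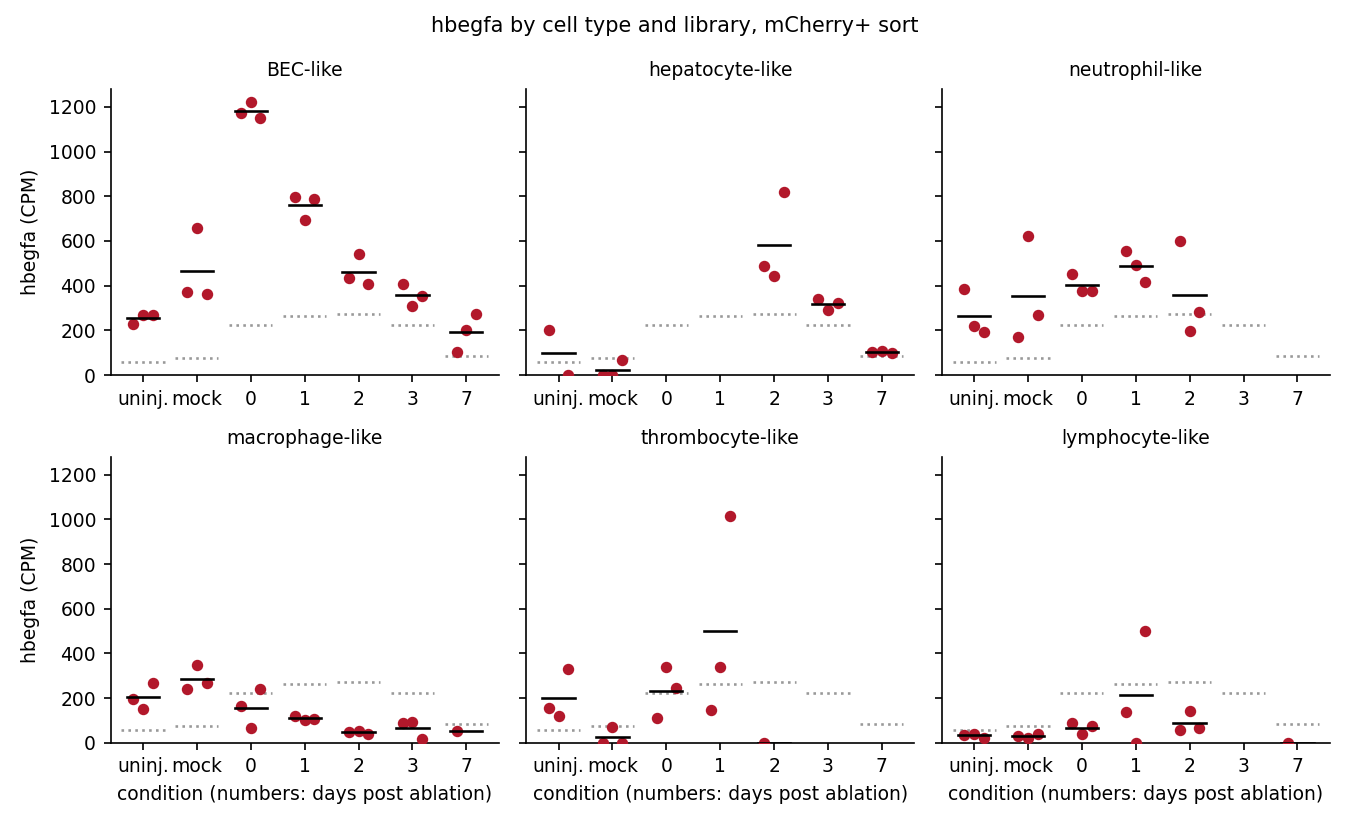
*hbegfa* level in CPM (vertical axis) for 6 cell types of the mCherry+ sort, by condition (horizontal axis; numbers are days post ablation, uninj. is uninjured). Points are libraries, black bars their mean and dotted lines the mean level outside cells: BECs at 0 dpa sit between 1149 and 1222 CPM, and the macrophage means lie below the dotted line at 0, 1, 2 and 3 dpa.

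The later times cannot be read without regard to scaling, because the typical gene moved with it. The median log2 change of all tested genes in BECs against mock was -0.05 at 0 dpa, but -0.62 at 1 dpa, -0.71 at 2 dpa and -0.70 at 3 dpa. With library-size scaling these medians were -0.10, -0.19, -0.19 and -0.48, and with edgeR's default TMM 0.00, 0.13, 0.28 and -0.00. The share of called genes that were higher at 2 dpa was 23.6% as scaled here, 43.0% by library size and 62.6% by default TMM. Relative to the median gene, *hbegfa* was above mock by 0.90 at 1 dpa (0.92 and 1.03 with the other scalings), by 0.18 at 2 dpa (0.19 and 0.24) and by 0.13 at 3 dpa (0.13 under both). Without that correction *hbegfa* changed against mock by 0.27 at 1 dpa (adjusted p = 0.18; 22.7% of genes called), -0.53 at 2 dpa (SE 0.15, adjusted p = 0.0026) and -0.57 at 3 dpa (adjusted p = 0.014; 12.5% called). The 1 dpa change stayed above 0 under the alternatives, at 0.098 to 1.17. Its adjusted p ran from 1.6e-12 to 0.74, so its call depended on the setting. The 2 dpa change was 0.00 with library-size scaling and 0.52 with default TMM (adjusted p = 0.0055), so no direction against mock was established for 2 dpa, nor for 3 dpa, where default TMM gave 0.13. At 7 dpa *hbegfa* was lower than in mock BECs (-1.75, SE 0.34, adjusted p = 2.7e-05; 3.27% of genes called) in 67 cells. The median gene changed by -1.82 there, so that *hbegfa* stood 0.07 above the median gene (0.08 with library-size scaling). With DESeq2, however, that median was -0.32, and these BECs held only 97336 UMIs, 18 of them of *hbegfa*. The median gene is thus an unsure baseline at 7 dpa. After subtraction of the outside level the change was -0.86 (adjusted p = 0.54).

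The share of cells with an *hbegfa* UMI followed the same order at 0 dpa. It was 44.4% of 585 BECs at 0 dpa (median 703 UMIs per cell), against 19.8% of 485 BECs in mock (median 530 UMIs). In lymphocytes, which were assumed, without a test, to lack the gene, the share was 3.31% at 0 dpa (median 508 UMIs) and 1.59% in mock (median 441 UMIs). That assumption is unsure. Whole-liver lymphocytes held 4.20% of *hbegfa* UMIs with 2.16% of all UMIs, though those of 1 dpa held 0.878% with 1.27%. The lymphocyte change at 1 dpa against mock was 0.73 to 2.86 over the settings tried, with a highest adjusted p of 0.67. With every cell thinned to 500 UMIs, shares were 36.0% of 406 BECs at 0 dpa against 16.5% of 261 BECs in mock, and 3.02% against 1.30% in lymphocytes. The share was thus higher at 0 dpa in lymphocytes as well, and the part of free RNA in either rise was not tested. At this thinned depth 28.4% of 1 dpa BECs, 14.8% of 2 dpa BECs and 10.2% of uninjured BECs held an *hbegfa* UMI.

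Among called cells of the mCherry+ sort, BECs held most *hbegfa* molecules at 0, 1 and 2 dpa, beyond their share of the RNA. The sort selected the marked lineage, so these shares do not describe the whole liver. In uninjured whole livers BECs held 10.2% of *hbegfa* UMIs with 1.79% of all UMIs, and hepatocytes 51.9% with 58.6%. In the mCherry+ sort BECs held 65.3% of the *hbegfa* UMIs of all called cells at 0 dpa with 20.7% of all UMIs, and 70.9% at 1 dpa with 30.8% of all UMIs. In mock they held 49.9% with 20.7% of all UMIs, and in uninjured 55.2% with 29.8%. At 2 dpa BECs made up most of the captured RNA, with 86.7% of *hbegfa* and 73.0% of all UMIs. From 3 dpa hepatocytes held most of both, at 93.8% of *hbegfa* and 91.9% of all UMIs, and at 7 dpa 89.0% and 88.7%, close to their share of the RNA.

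Hepatocytes in the mCherry+ libraries were sorted for the mark that the Tp1 driver had left on cells before ablation. Their *hbegfa* level was 486, 442 and 818 CPM in the 66 hepatocytes of 2 dpa, 339, 290 and 324 CPM at 3 dpa and 103, 109 and 97 CPM at 7 dpa. GFP+ hepatocytes held 22 CPM (60 UMIs, 1 library), and whole-liver hepatocytes held between 18.2 and 65.2 CPM in the 6 libraries. The 3 dpa libraries thus lay above all 7 dpa libraries, and the 7 dpa libraries above the GFP+ and all whole-liver libraries. *hbegfa* was lower at 7 dpa than at 3 dpa (-1.73, SE 0.10, adjusted p = 8.4e-63), among 3 members called lower where 47.5% of all genes were called and 42.4% were called lower, and where the median gene changed by -0.91. Unablated hepatocytes of the mCherry+ sort held 3 *hbegfa* UMIs among 42047 in uninjured (35 cells). In mock they held 2 among 61029 (46 cells), and both counts are too few for a firm level. Pooled over libraries, the 3 dpa level was 14.5 times that of GFP+ hepatocytes and 9.84 times that of whole-liver hepatocytes, comparisons that set sorted regenerating cells beside other libraries and carry no test. Outside levels moved in the same way, at 221 to 226 CPM at 3 dpa and 83.2 to 88.4 CPM at 7 dpa, and hepatocytes exceeded them by only 1.31 to 1.51 times at 3 dpa and 1.097 to 1.244 times at 7 dpa; the part of free RNA in the difference was not tested. Against BECs of 2 dpa, hepatocytes of 3 dpa differed by -0.27 (adjusted p = 0.0068), less than the median gene (-0.54), and by 0.07 with default TMM.

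Neutrophils, phagocytes of the blood that came with the sort, also held *hbegfa*. Their levels were 453, 377 and 378 CPM at 0 dpa and 557, 493 and 417 CPM at 1 dpa, against 170, 622 and 269 CPM in mock, where only 9 UMIs were counted, and 384, 219 and 193 CPM in uninjured. All of these libraries exceeded their outside level, which at 2 dpa only 1 of 3 did. An unnamed cluster led by the neutrophil marker *mmp13a* held 115 CPM at 0 dpa, below the outside level, and is not part of these values. The 0 dpa and mock libraries overlapped, and the change was -0.01 (SE 0.56, adjusted p = 1), in a comparison where 1.29% of genes were called. Between types at 0 dpa, neutrophils were lower in *hbegfa* than BECs of the same libraries (-1.95, SE 0.23, adjusted p = 4.1e-16; 41.3% of genes called), although DESeq2 gave -0.91 (adjusted p = 0.053). At 1 dpa the difference of neutrophils from BECs was 0.29 as scaled here (adjusted p = 0.28; 20.4% called). In CPM, however, neutrophils lay below BECs in every library of 1 dpa, so no direction was established.

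In macrophages *hbegfa* was lower at 1 and 2 dpa than in mock, while the 0 dpa difference was not called. Named macrophages numbered 317 in mock, 115 at 0 dpa, 1069 at 1 dpa and 218 at 2 dpa. Whether these are the same population was not tested. They held 166, 65.8 and 240 CPM of *hbegfa* at 0 dpa, 119, 104 and 108 CPM at 1 dpa and 49.3, 54.5 and 38.8 CPM at 2 dpa, whereas mock macrophages held 242, 348 and 268 CPM. Every macrophage library lay above the outside level in uninjured and mock fish. At 0 dpa 1 of 3 did (0.28 to 1.09 times the outside level), and none did at 1, 2 or 3 dpa. At these later times macrophage levels thus did not exceed it, and the part of free RNA in them was not tested. *hbegfa* changed in macrophages against mock by -0.98 at 0 dpa (adjusted p = 0.058; 4.15% of genes called), -1.81 at 1 dpa (SE 0.23, adjusted p = 1.6e-13; 23.7% called) and -3.09 at 2 dpa (adjusted p = 8.7e-21; 18% called). The change since mock was larger in BECs than in macrophages by 2.42 at 0 dpa (SE 0.33, adjusted p = 3.5e-10; 0.736% of genes called), 2.29 at 1 dpa (SE 0.25, adjusted p = 7.5e-18; 3.57% called) and 2.85 at 2 dpa (SE 0.33, adjusted p = 8.8e-16; 3.38% called). The same difference between BECs and neutrophils at 0 dpa was 1.03 (SE 0.62, adjusted p = 1; 0.104% called). These tests of the difference were added after the data had been seen. Macrophages held 3.37% of *hbegfa* UMIs at 0 dpa with 8.48% of all UMIs, against 30.4% in mock with 20.5%. Lymphocytes held 87.6, 40.4 and 75.2 CPM at 0 dpa and 31.7, 22.9 and 38.7 CPM in mock, below the outside level in all 6 libraries. At 0 dpa *hbegfa* was lower than in BECs by 3.72 in lymphocytes (log2 difference -3.72, adjusted p = 6.4e-41; 45% of genes called) and by 3.39 in macrophages (-3.39; 36.8% called). The median gene differed by -0.43 in lymphocytes and -0.87 in macrophages.

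The second HB-EGF gene, *hbegfb*, was carried mainly by thrombocytes, the nucleated fish counterpart of platelets, in uninjured, mock and 0 dpa libraries. Thrombocytes held 1657, 2094 and 2410 CPM of *hbegfb* at 0 dpa (44, 31 and 49 UMIs), against 996, 1675 and 1394 CPM in mock (8, 23 and 16 UMIs), and 986, 746 and 1089 CPM in uninjured (70, 43 and 63 UMIs). BECs of the same libraries held 74.6, 38.2 and 55.7 CPM at 0 dpa, 57.6, 52.1 and 37.8 CPM in mock and 9.88, 43.2 and 20.3 CPM in uninjured. The types did not overlap in these conditions, and thrombocytes exceeded the outside level by 15.5 to 33.0 times at 0 dpa, whereas all BEC libraries of 0 dpa were below it. *hbegfb* was higher in thrombocytes than in BECs by 4.97 on the log2 scale at 0 dpa (SE 0.37, adjusted p = 1.5e-37; 15.3% of genes called), 5.40 in mock (SE 0.54, adjusted p = 5.1e-21; 6.65% called), 6.31 in uninjured (SE 0.31, adjusted p = 1.7e-87; 14.7% called) and 5.68 at 1 dpa (SE 0.60, adjusted p = 1.8e-18; 1.79% called). *hbegfb* was among the leading genes of the thrombocyte cluster, which had been seen when the naming rule was adjusted. Thrombocytes held 68.9% of *hbegfb* UMIs at 0 dpa with 2.36% of all UMIs, 52.8% in mock with 1.86% and 69.3% in uninjured with 3.61%. Later few thrombocytes were captured, and other types held most *hbegfb* UMIs, near or below their share of the RNA. At 1 dpa thrombocytes held 15.1%, macrophages 47.3% and BECs 32.2% of them, at 2 dpa thrombocytes held 5.78% and BECs 72.3%, and at 3 dpa thrombocytes held 0 and hepatocytes 89.9%, from 2 thrombocytes at 3 dpa and 14 at 2 dpa.

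Between conditions the *hbegfb* level of thrombocytes was less certain. The difference between 0 dpa and mock was 0.58 (adjusted p = 0.67; 1.12% of genes called). At 1 dpa, with 24 thrombocytes, *hbegfb* was 294, 1857 and 789 CPM (4, 11 and 7 UMIs), lower than at 0 dpa by the test (-1.78, SE 0.47, adjusted p = 0.0038; 12.6% called), but not after leaving out 1 dpa replicate 1 (-0.90, adjusted p = 0.29) or subtracting the outside level (-0.67). An *hbegfb* UMI was found in 39.3% of thrombocytes at 0 dpa (median 365.5 UMIs per cell), 29.2% in mock (306.5 UMIs) and 37.7% in uninjured (661 UMIs), against 0.725% of lymphocytes at 0 dpa, 0.796% in mock and 0.966% in uninjured. The thrombocyte sums at 0 dpa held 115 UMIs over all 7 thrombocyte markers, but also 90 UMIs over 2 of the 7 endothelial markers, led by *sele*; the part of endothelial cells in the *hbegfb* level was not tested. *hbegfa* in the same thrombocytes was 113, 338 and 246 CPM at 0 dpa, above the outside level in 1 library of 3, and 0, 72.8 and 0 CPM in mock.

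**Figure D2:**
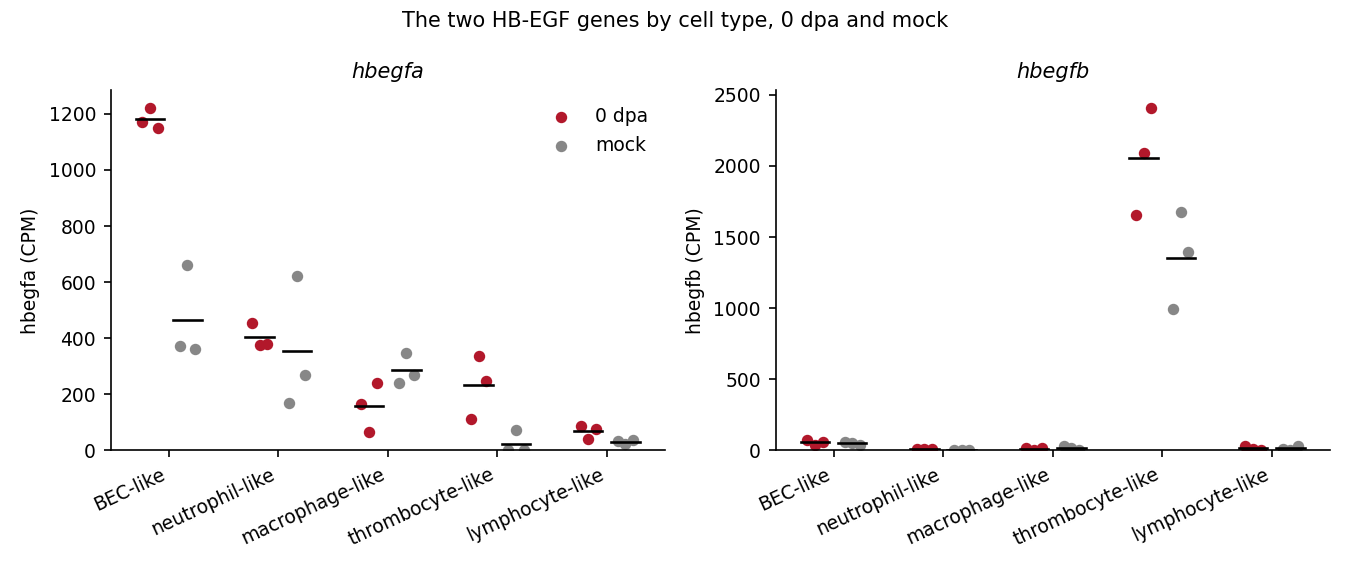
Levels in CPM (vertical axes) of the paralogues *hbegfa* (left) and *hbegfb* (right) by cell type at 0 dpa (red) and in mock (grey). Points are libraries and bars their mean: *hbegfa* reaches 1222 CPM in BECs at 0 dpa, whereas *hbegfb* lies between 996 and 2410 CPM in thrombocytes and at no more than 74.6 CPM in BECs.

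In BECs *hbegfb* exceeded the outside level in all 3 mock libraries, by 1.06 to 1.78 times, and in none of the libraries of 0, 1 and 2 dpa. Its changes in BECs against mock, -1.58 at 1 dpa (adjusted p = 0.0086) and -1.64 at 2 dpa (adjusted p = 0.0029), lost their call with library-size scaling and default TMM. Hepatocytes held 19.6, 15.7 and 18.6 CPM at 3 dpa, all below the outside level, and 0.458, 0 and 1.42 CPM at 7 dpa, where 1 of 3 libraries was above it (-4.62 for 7 dpa against 3 dpa, adjusted p = 4.5e-25).

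The neuregulin gene *nrg1* rose in BECs at 0 dpa. BECs held 79.9, 140 and 106 CPM at 0 dpa (15, 22 and 21 UMIs), against 8.23, 17.4 and 22.7 CPM in mock (1, 2 and 3 UMIs). The levels were 43.9, 25.7 and 23.3 CPM at 1 dpa, 11.7, 11.8 and 9.67 CPM at 2 dpa and 44.4, 22.7 and 30.4 CPM in uninjured. The 0 dpa libraries overlapped with no other condition and stood at 1.32 to 2.94 times the outside level (38.0 to 60.7 CPM at 0 dpa, 12.8 to 29.96 CPM in mock), but at 2 dpa no library did. *nrg1* was higher at 0 dpa than in mock by 2.76 (SE 0.55, adjusted p = 3.4e-05), lower at 1 dpa than at 0 dpa (-2.28, SE 0.32, adjusted p = 1.6e-10) and lower at 2 dpa than at 1 dpa (-1.57, adjusted p = 8.4e-06). BECs held 61.7% of *nrg1* UMIs at 0 dpa with 20.7% of all UMIs, and the gene was lower there in lymphocytes (-2.87, adjusted p = 2.7e-05), macrophages (-3.89, adjusted p = 1.1e-05) and neutrophils (-4.11, adjusted p = 8.6e-07) than in BECs, where the lymphocyte call was lost with types from each cell's markers (-2.40, adjusted p = 0.19). In mock, BECs held 20% of *nrg1* UMIs with 20.7% of all UMIs, and cells named neuron-like held 33.3% with 5.62%. Of these 10 neuron-like UMIs, 8 came from 1 barcode of mock replicate 1. In hepatocytes *nrg1* was 12.7, 12.4 and 12.1 CPM at 3 dpa and 1.83, 2.69 and 5.67 CPM at 7 dpa (-1.92, adjusted p = 4.9e-08), above the outside level in 1 of 3 libraries at either time.

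Until 2 dpa BECs held more UMIs of *egfra*, *erbb2*, *erbb3a* and *erbb3b* than any other named type of the mCherry+ libraries, and by mean level *egfra*, *erbb2* and *erbb3a* were highest in uninjured BECs. At 2 dpa BECs held 79.7% (*erbb2*) to 91.2% (*erbb3a*) of these UMIs, but also 73.0% of all UMIs. *egfra*, the zebrafish EGFR gene, stood at 72.4, 40.9 and 38.5 CPM in uninjured BECs and 8.23, 0 and 37.8 CPM in mock. It was 21.3, 12.7 and 20.2 CPM at 0 dpa, 8.23, 12.1 and 2.75 CPM at 1 dpa, 5.59, 3.10 and 7.83 CPM at 2 dpa, and 10.5, 0 and 3.56 CPM at 3 dpa. Every uninjured library was above every mock library, yet the difference missed the threshold (1.70, SE 0.60, adjusted p = 0.081), as did 2 dpa against mock (-2.01, adjusted p = 0.056). The 0 dpa change was 0.23 and changed sign under 4 alternatives.

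*erbb2*, the common partner receptor, stood at 79.0, 84.1 and 60.8 CPM in uninjured BECs and 16.5, 60.8 and 98.4 CPM in mock BECs (22 UMIs). It was 21.3, 38.2 and 25.3 CPM at 0 dpa, 16.5, 30.2 and 17.8 CPM at 1 dpa, 11.2, 6.20 and 15.2 CPM at 2 dpa, and 5.24, 6.28 and 32.0 CPM at 3 dpa. The 2 dpa libraries lay below all mock and all uninjured libraries. Against mock, *erbb2* changed by -1.06 at 0 dpa (adjusted p = 0.29), -1.93 at 1 dpa (SE 0.47, adjusted p = 0.00044) and -2.92 at 2 dpa (SE 0.48, adjusted p = 3.1e-08). The 2 dpa call held under every alternative tried and was -2.21 relative to the median gene. The 1 dpa call was lost with default TMM (-1.04, adjusted p = 0.085) and without mock replicate 3 (-1.31, adjusted p = 0.16), and so was the 3 dpa call (-1.997, adjusted p = 0.0074), which became -1.29 with default TMM (adjusted p = 0.14). At 7 dpa 0 UMIs of *erbb2* were found in BECs, which allows up to 30.8 CPM (limit of 3 counts over the group), a limit above 1 of the 3 mock libraries.

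The ERBB3 receptor genes *erbb3a* and *erbb3b* were read next. *erbb3a* was 114, 114 and 140 CPM in uninjured BECs, above all mock libraries (49.4, 34.7 and 53.0 CPM). It was 32.0, 44.6 and 10.1 CPM at 0 dpa, 27.4, 25.7 and 27.5 CPM at 1 dpa and 17.3, 23.5 and 15.7 CPM at 2 dpa, then 10.5, 0 and 7.11 CPM at 3 dpa and 0, 80.4 and 61.0 CPM at 7 dpa, on 4 UMIs at either time. *erbb3a* was higher in uninjured than in mock BECs by 1.44 (SE 0.37, adjusted p = 0.0047; 5.09% of genes called) and lower at 2 dpa than in mock (-1.83, SE 0.49, adjusted p = 0.0013), where default TMM gave -0.79 (adjusted p = 0.20), and at 3 dpa the change was -3.06 (adjusted p = 0.0011), a call that held under every alternative tried. The uninjured call was lost without mock replicate 2 (1.3, adjusted p = 0.054). *erbb3b* was 31.3, 43.2 and 32.4 CPM in uninjured, 16.5, 52.1 and 22.7 CPM in mock, 16, 6.37 and 30.4 CPM at 0 dpa, 23.3, 31.7 and 31.6 CPM at 1 dpa and 14, 14.3 and 19.8 CPM at 2 dpa. All these *erbb3b* conditions overlapped with mock in part, and its 2 dpa change against mock was -1.40 (adjusted p = 0.055). *erbb4a* was too sparse to follow, with 4 UMIs in 0 dpa BECs and 1 UMI in 1 dpa BECs.

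**Figure D3:**
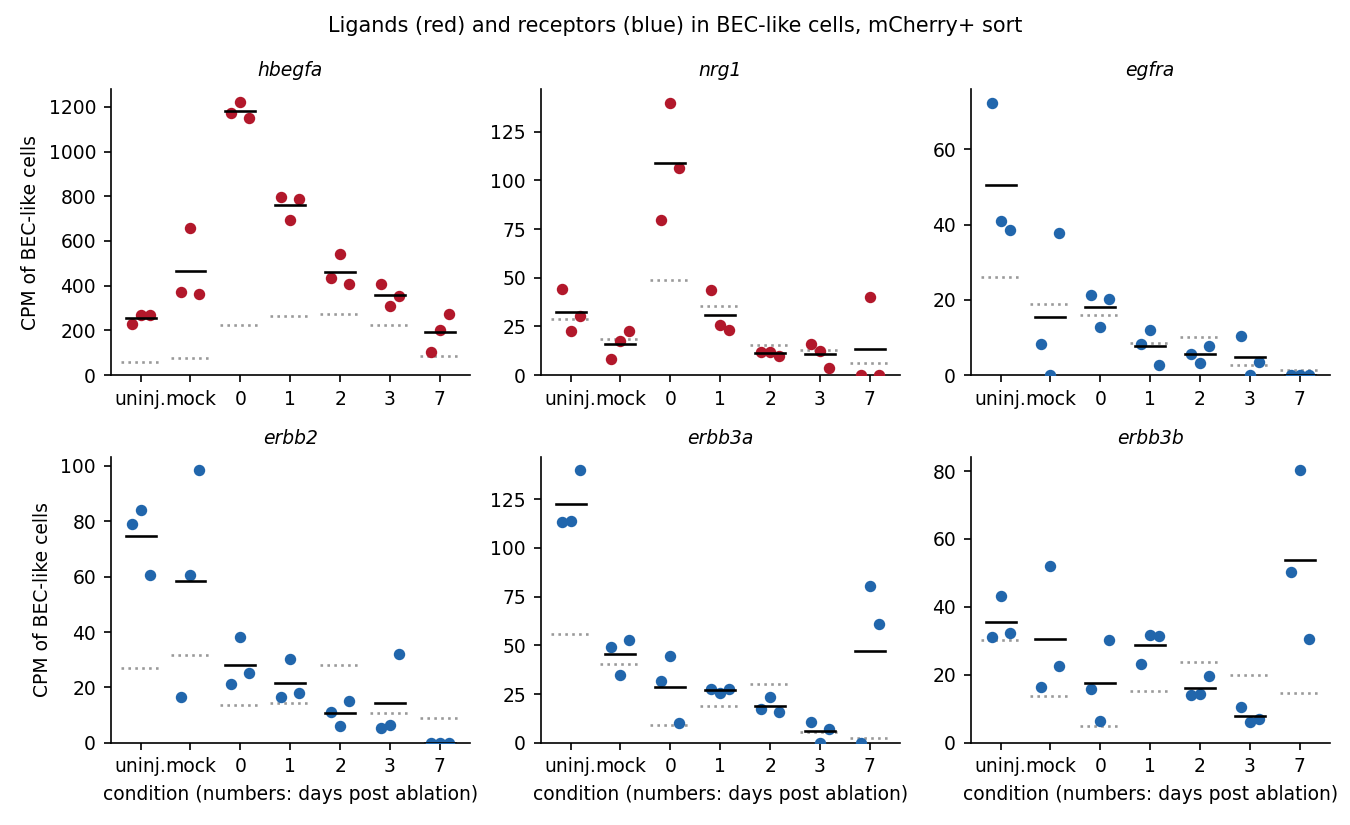
Levels in CPM (vertical axes, each with its own scale) of the ligands *hbegfa* and *nrg1* (red) and the receptors *egfra*, *erbb2*, *erbb3a* and *erbb3b* (blue) in BECs of the mCherry+ sort, by condition. Points are libraries, bars their mean and dotted lines the mean outside cells: the ligands peak at 0 dpa, while *erbb2* lies at 6.20 to 15.2 CPM at 2 dpa and at 60.8 to 84.1 CPM in uninjured BECs.

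At 2 dpa 4 members were called against mock, all lower (*hbegfa*, *hbegfb*, *erbb2* and *erbb3a*), where 27.4% of all genes were called and 20.9% were called lower. The median log2 change of the receptors was -2.01 there, and -0.71 over all tested genes, and at 0 dpa it was -0.65 and -0.05. In uninjured BECs *egfra*, *erbb2* and *erbb3a* exceeded the outside level in all 3 libraries, by 1.38 to 3.31, 2.57 to 3.13 and 1.92 to 2.36 times. At 0 dpa all 3 libraries exceeded it for *egfra*, *erbb2*, *erbb3a* and *erbb3b*, and at 2 dpa BECs were below the outside level in all 3 libraries for the same 4 receptors. The 0 dpa margin of *egfra* was small, at 21.3, 12.73 and 20.2 CPM against 17.4, 12.69 and 17.5 CPM outside, on 10 UMIs in BECs. Against 1 dpa, *erbb2* (-0.99, adjusted p = 0.026) and *erbb3b* (-0.89, adjusted p = 0.017) were lower at 2 dpa, calls that were lost with default TMM (-0.84 and -0.75). For these 4 receptors a difference of 2 dpa from 0 dpa thus sets levels below the outside level beside levels above it. The same holds against uninjured for *egfra*, *erbb2* and *erbb3a*. The cell cutoff was 616 to 763 UMIs at 2 dpa but 238 to 245 UMIs at 0 dpa. Outside barcodes of 2 dpa may thus hold more small cells, and a level below theirs does not show that BECs lacked the receptor. Mock and 1 dpa were not above the outside level throughout. In mock it was 14.98 to 21.41 CPM for *egfra* and 24.09 to 45.99 CPM for *erbb2*, and the lowest BEC library lay below that range for both. At 1 dpa the lowest *egfra* library of BECs lay below the outside range of 5.33 to 11.35 CPM. CPM shows a change only relative to the rest of the RNA. Hepatocyte markers in BECs stood at 987 CPM at 0 dpa, 2179 CPM at 1 dpa and 3744 CPM at 2 dpa, against 2193 CPM in mock, and their part in the receptor levels was not tested.

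**Figure D4:**
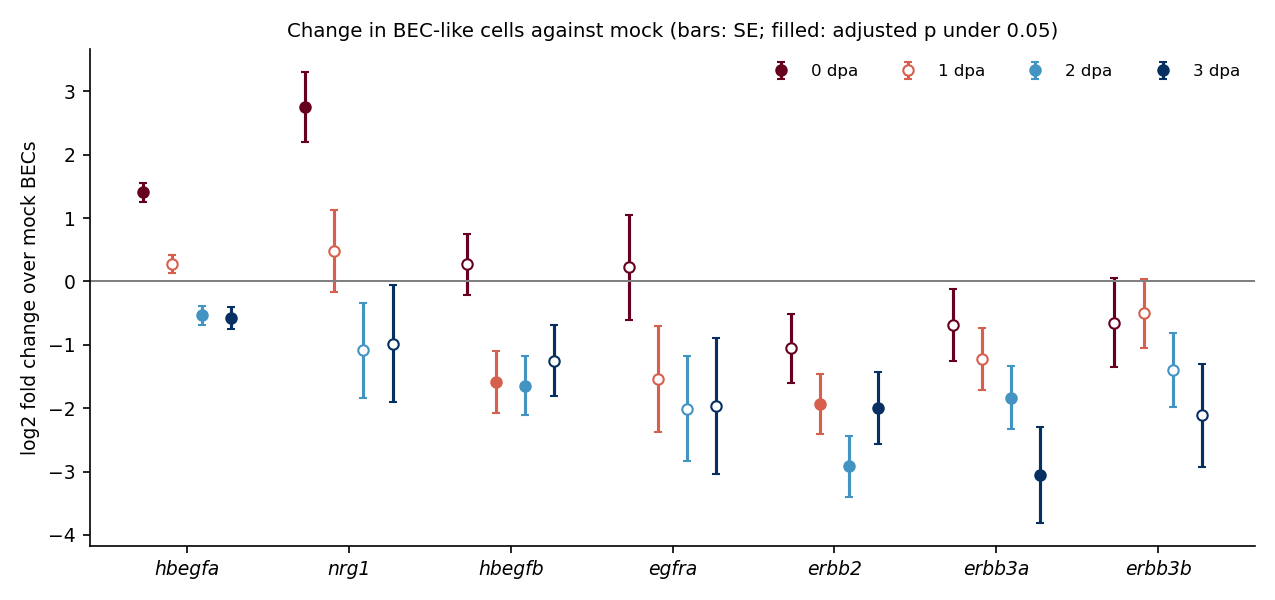
Log2 change against mock (vertical axis) of 7 members in BECs at 0, 1, 2 and 3 dpa. Bars are the SE derived from the test statistic, and points are filled where the adjusted p was under 0.05. *hbegfa* and *nrg1* are above 0 and filled at 0 dpa, at 1.41 and 2.76, and *erbb2* is at -2.92 at 2 dpa; the median of all genes was -0.62, -0.71 and -0.70 at 1, 2 and 3 dpa.

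The share of receptor UMIs in BECs varied with the condition. For *egfra*, *erbb2*, *erbb3a* and *erbb3b* it was 40% (*egfra*) to 68% (*erbb3a*) in mock and 50% (*erbb2*) to 66.7% (*erbb3b*) at 0 dpa, above their 20.7% of all UMIs in both, on 15 to 38 UMIs per gene. Uninjured BECs held 86.2% of *egfra*, 78.2% of *erbb2* and 83.9% of *erbb3a* UMIs with 29.8% of all UMIs. Against uninjured BECs, uninjured lymphocytes were lower in *egfra* (-5.46, adjusted p = 1.3e-13), *erbb2* (-3.14, adjusted p = 4.3e-11), *erbb3a* (-3.42, adjusted p = 3.8e-17) and *erbb3b* (-2.89, adjusted p = 5.3e-06), where 39.5% of genes were called. Uninjured macrophages were lower in the same receptors, by -3.0, -2.45, -4.78 and -2.49 (adjusted p from 6.8e-12 to 0.0060), of which the *erbb3b* call was lost with DESeq2 (adjusted p = 0.071) and without uninjured replicate 2 (-1.76, adjusted p = 0.16), while *hbegfa* differed by 0.14 (adjusted p = 0.72; 31% of genes called). At 1 dpa BECs held 81.8% of *erbb2*, 78.1% of *erbb3a* and 82.4% of *erbb3b* UMIs with 30.8% of all UMIs. At 3 dpa hepatocytes held 54 of 69 *erbb2*, 48 of 54 *erbb3a* and 183 of 191 *erbb3b* UMIs, with 91.9% of all UMIs, against 11, 4 and 5 in BECs.

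Hepatocytes of 3 dpa held 0.834, 1.27 and 0.439 CPM of *egfra*, 2.5, 4.82 and 5.05 CPM of *erbb2*, 2.92, 3.55 and 4.39 CPM of *erbb3a* and 15.8, 12.9 and 12.3 CPM of *erbb3b*. They exceeded the outside level in no library for *egfra*, *erbb2* and *erbb3b* and in 1 of 3 for *erbb3a*. The part of free RNA in these levels was not tested. Against BECs of 2 dpa, 4 members were lower and none higher, where 45% of all genes were called and 32.8% were called lower: *egfra* (-2.34, adjusted p = 2.1e-05), *erbb3a* (-2.06, adjusted p = 7.9e-12), *erbb2* (-1.18, adjusted p = 0.00087) and *hbegfa*. The *erbb2* call was lost without 2 dpa replicate 3 (-0.83, adjusted p = 0.084). *erbb3b* was 7.78, 10.2 and 17.5 CPM in hepatocytes of 7 dpa and overlapped with 3 dpa.

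UMIs of ligand and receptor were found under the same barcodes. Among BECs with a UMI of any of the 5 receptors, 22 of 48 also held *hbegfa* at 0 dpa (45.8%, against 44.4% of all BECs), 93 of 136 at 1 dpa (68.4%, against 58.4%) and 128 of 213 at 2 dpa (60.1%, against 52.8%). In mock these were 14 of 45 (31.1%, against 19.8%) and in uninjured 69 of 283 (24.4%, against 22.1%). Cells with more UMIs are more likely to show both, free RNA and doublets, which were not removed, can give both, and at 2 dpa the receptor levels lay below the outside level. These counts therefore do not show that a cell expressed both genes, and no test was made.

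In uninjured whole livers the ligand was likewise not specific to BECs. *hbegfa* stood at 94.7 to 317 CPM in BECs of the 6 libraries (median 142 CPM, 80 UMIs in all). Against the other types of the same libraries, *hbegfa* was higher in BECs (1.95, SE 0.45, adjusted p = 0.00083; 7.4% of genes called), macrophages (2.00, adjusted p = 0.00056; 16.3% called) and endothelial cells (1.39, adjusted p = 0.027; 13.8% called). The median gene was also higher in these types, by 0.52, 0.80 and 1.04, so the endothelial value lay near it. Of the called genes 953 of 1010, 2130 of 2226 and 1861 of 1879 were higher. The BEC call was lost after subtracting the outside level (1.58, adjusted p = 0.051), the macrophage call with default TMM (1.32, adjusted p = 0.11), and the endothelial call with default TMM (0.99, adjusted p = 0.31), with at least 20 cells per sum (0.70, adjusted p = 0.40) and without any 1 of 5 of the 6 libraries. In BECs *erbb3a* was higher than in the other types (5.33, adjusted p = 1.5e-06) on 22 UMIs, where DESeq2 gave 2.86 (adjusted p = 0.30), and so was *nrg1* (2.45, adjusted p = 0.031), a call that was lost with DESeq2 (1.65, adjusted p = 0.24), after subtracting the outside level (2.17, adjusted p = 0.16) and with types from each cell's markers (2.46, adjusted p = 0.34). *egfra* was higher in stellate cells (4.70, adjusted p = 0.017; 3.44% called) on 4 UMIs and in endothelial cells (2.97, adjusted p = 0.042) on 10 UMIs, where DESeq2 gave 3.17 (adjusted p = 0.48) and 1.07. Cells named neuron-like, where the median gene differed by 1.23, also had positive differences over the settings tried. These were 3.44 to 7.04 for *erbb3a* (17 UMIs, 12 of them from 1 barcode), 2.09 to 6.02 for *egfra* (8 UMIs) and 1.56 to 5.31 for *nrg1* (10 UMIs). The highest adjusted p was 0.072, 0.61 and 0.42, so none kept its call under every setting.

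**Figure D5:**
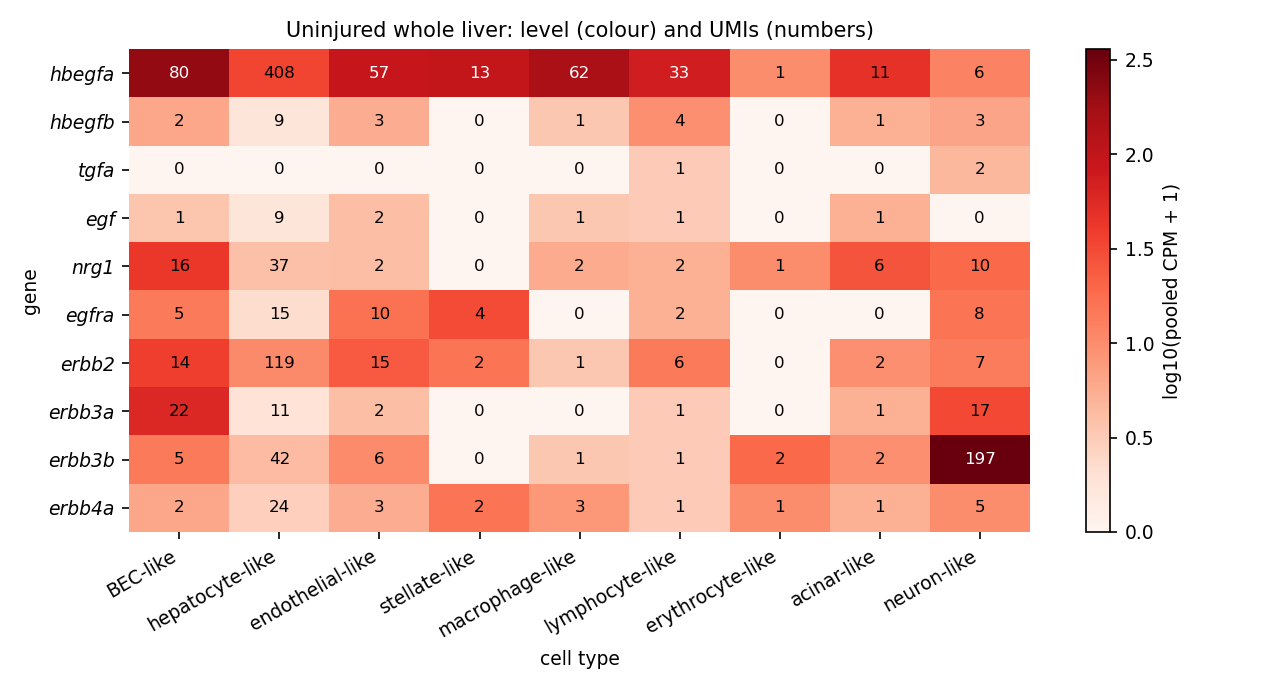
UMIs (numbers) and level (colour, log10 of the pooled CPM + 1) of the 10 members (rows) in cell types of the 6 uninjured whole-liver libraries (columns). BECs hold 80 UMIs of *hbegfa* and 22 of *erbb3a*; 191 of the 197 *erbb3b* UMIs in the cluster named neuron-like came from 1 barcode.

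The other genes of the pathway were described in BECs from lists chosen by function. At 0 dpa against mock, 5 of the 16 ERK-dependent early genes were higher and 3 lower (list median 0.03, against -0.05 over all genes), where 6.75% of all genes were called and 3.53% were called higher. *spry4*, a feedback inhibitor of receptor tyrosine kinase signalling, stood at 112, 70.0 and 81.0 CPM at 0 dpa, against 24.7, 17.4 and 0 CPM in mock (2.74, SE 0.62, adjusted p = 0.00047). The Myc gene *mycb* stood at 234, 255 and 263 CPM at 0 dpa, against 41.2, 69.4 and 45.4 CPM in mock (2.33, SE 0.33, adjusted p = 4.7e-10). The Fos gene *fosab* was lower, at 1055, 872 and 1352 CPM at 0 dpa against 1984, 2031 and 2134 CPM in mock (-0.85, SE 0.11, adjusted p = 4.2e-12), and *junbb* was lower by -0.44 (adjusted p = 0.048). These genes thus moved in both directions, and 8 of the 16 were lower in uninjured than in mock BECs, where 5.09% of all genes were called. Of the 13 receptor brakes 1 was called, *errfi1a*, whose mammalian counterpart inhibits EGFR, at 144, 115 and 137 CPM at 0 dpa against 239, 243 and 363 CPM in mock (-1.05, SE 0.25, adjusted p = 0.0011). None was called among the other EGF family ligands (5 tested), ligand shedding genes (5), receptor adaptors and effectors (15), the RAS and ERK cascade (18) or PI3K and AKT (13).

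At 2 dpa against mock no listed gene was higher, and 10 of 16 ERK-dependent early genes, 6 of 13 PI3K and AKT genes, 7 of 15 receptor adaptors and effectors, 4 of 13 brakes, 2 of 5 ligand shedding genes and 3 of 5 other ligands were lower, where 20.9% of all genes were called lower and the median of all genes was -0.71. The balance of directions at 2 dpa turned with scaling, with 23.6% of called genes higher as scaled here and 62.6% with default TMM, so these counts hold for the scaling used here. The list medians were -1.58, -1.30, -1.15, -1.05, -1.45 and -2.89. The most reduced included the ERK phosphatase *dusp6* (-3.39, adjusted p = 0.00016), the early gene *egr1* (-2.08, adjusted p = 9.1e-25), which stood at 118, 123 and 108 CPM at 2 dpa against 313, 373 and 340 CPM in mock, the PI3K subunit *pik3cd* (-5.95, adjusted p = 2.9e-09), the PDK1 gene *pdpk1a* (-2.79), the adaptors *grb7* (-3.02) and *shc2* (-2.36), the ubiquitin ligase *cblb* (-3.11) and *socs3a* (-2.48), the proteases *adam17b* (-3.48) and *adam10a* (-2.14), and the ligands *nrg3b* (-3.92) and *areg* (-3.23). Few UMIs stand behind several of these: *adam17b* stood at 1.68, 1.24 and 1.84 CPM at 2 dpa, against 41.2, 0 and 0 CPM in mock, so that its change rests on 5 UMIs of mock replicate 1, and *grb7* and *pdpk1a* were also at 0 in 1 mock library. *areg* stood at 5.59, 4.34 and 6.91 CPM at 2 dpa, against 57.6, 60.8 and 0 CPM in mock. The mock libraries held 2, 6 and 1 UMIs of *dusp6* and 2, 4 and 5 UMIs of *pik3cd*. Uninjured BECs held 140, 209 and 194 CPM of *egr1*, above 2 dpa but below mock, and 8.23, 4.55 and 16.2 CPM of *dusp6*. None of the 18 genes of the RAS and ERK cascade was called, with a median of -0.80. BECs of 2 dpa also carried fewer marker UMIs of other types than BECs of mock, at 7.89 CPM at 2 dpa against 114 CPM in mock for lymphocytes and 36.1 CPM at 2 dpa against 106 CPM in mock for macrophages, and their part in these changes was not tested.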

How the data were processed

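Drop-seq libraries of sorted or whole zebrafish liver were analysed from the deposited matrices, in which the authors give whole-number UMI counts per gene and barcode. The submitters' notes name Drop-Seq tools 2.4.0, STAR 2.5.3, FastQC 0.11.2 and the GRCz11 build. All 28 matrices were used, each with 5000 barcodes and 926798 to 7296066 UMIs. Counts rest on UMIs, and intervals and limits for 0 (3 counts) cover counting error only.

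Barcodes above their library's mean total were kept as cells. Cells were clustered (2000 variable genes, 30 principal components, 20 neighbours, leidenalg 0.10.2 and igraph 0.11.9 at resolution 2, on counts with the 95th percentile of outside barcodes subtracted), separately for sorted and whole-liver libraries, and clusters were named from at least 3 detected markers. The 10 members were kept out of the variable genes and the marker lists. The naming rule also counted markers among the 10 leading genes of a cluster, a list that could hold members. The members and gene lists were chosen with earlier results of these data known. The naming rule was adjusted after cluster names and leading genes had been seen, before any test, and *hbegfb* was among the leading genes of the thrombocyte cluster. No doublets were removed, and library pairs shared at most 4 cell barcodes (89 of 378 pairs shared any).

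Raw counts were summed by library and type (at least 10 cells, or 5 for rare types) and tested with edgeR 4.0.16 quasi-likelihood fits (R 4.3.3) with TMM factors from genes abundant enough for the shallowest sum, Benjamini-Hochberg adjustment over all tested genes and a threshold of 0.05. The SE given with an edgeR result is the absolute log2 change divided by the square root of the test's F statistic. It is not a separate estimate. Types within a condition were compared with the library as a block. The fit was also run on simulated counts drawn from a single mean profile with known changes added. These hold no shift of composition between states and so do not test the scaling. Alternatives were DESeq2 1.42.0, library-size and default TMM scaling, no filter, 20 cells per sum, cells of at least 300 UMIs, subtraction of the outside level, types from raw-count clusters or from each cell's markers, removal of the 5% of cells with the highest doublet score, the replicate number as a block, and leaving out each library.

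Every member was named whatever its values. Of each pathway list, the 2 largest rises and falls past the threshold were named for 0 dpa and 2 dpa BECs against mock, and for the ligand and the receptor with most UMIs the 5 genes of most similar pattern. One 7 dpa library is labelled replicate 31 and was kept as such.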

Additional observations from a re-analysis of the deposited data

Results flagged for a closer look

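The change of *hbegfa* since mock differed between BECs and macrophages by a test of the difference itself, on the log2 scale by 2.42 at 0 dpa, 2.29 at 1 dpa and 2.85 at 2 dpa. Of the sorted macrophage libraries, 1 of 3 lay above the level outside cells at 0 dpa, and none did at 1, 2 or 3 dpa.

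Of 11 groups of 4 to 10 libraries examined for a library far from the others, 1 stood out, where chance gives about 1 in 20. *erbb3b* reached 1195 CPM in whole-liver replicate 6 in the cluster named neuron-like, none of whose neuron markers was among its 10 leading genes, and 191 of the 197 UMIs of that cluster came from 1 barcode of 7935 UMIs, 1 of 86 such cells in this library. This barcode alone held 22.4% of all *erbb3b* UMIs in called cells.

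Signals also appeared in cells that no comparison used. GFP+ hepatocytes held 36.3 CPM of *erbb2* (99 UMIs, 1 library), 3.83 times the pooled level of whole-liver hepatocytes, while barcodes outside cells of the same library held 38.5 CPM. An unnamed cluster of 321 cells at 0 dpa, led by *mmp13a* and *cxcl8b.1*, held 115 CPM of *hbegfa* (86 UMIs), below the outside level of 153 to 283 CPM. *mmp13a* was also among the neutrophil markers used here. The cluster held 749519 UMIs at 0 dpa, against 286561 in the named neutrophils, and entered no neutrophil or macrophage level. In the whole-liver libraries, an unnamed cluster of 22 cells from 1 library, led by *admb*, *apln* and *itga2b*, held 1603 CPM of *hbegfb* (18 UMIs), and an unnamed cluster of 55 cells led by *cfd* and *anxa1a* held 76.3 CPM of *egfra* (10 UMIs).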

How the results depend on the processing

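Of 94 called results on members, 46 kept their call under every alternative and 3 reversed under one. Library-size scaling and default TMM turned *hbegfa* in BECs at 2 dpa against mock to 0.00012 and 0.52, and default TMM gave 0.13 at 3 dpa against mock, 0.074 for hepatocytes of 3 dpa against BECs of 2 dpa, -0.79 for *erbb3a* at 2 dpa and -0.028 for the BEC minus neutrophil difference at 0 dpa. *hbegfa* in neutrophils at 0 dpa against mock, not called, was 0.20 with DESeq2, 0.052 with library-size scaling, 1.40 with default TMM, 0.33 with raw-count clusters and 0.12 without likely doublets. *egfra* in BECs at 0 dpa was -0.13 with raw-count clusters, -1.22 with types from each cell's markers, and -0.31 to 2.13 without 1 library (-0.09 and -0.31 without mock replicates 1 and 2). *hbegfa* in whole-liver BECs was 1.58 after background subtraction. The share of BECs with *hbegfa* was 36.0% thinned to 500 UMIs and 25% thinned to 300 UMIs at 0 dpa, and 10.4% thinned to 300 UMIs in mock. Leaving out 1 library at a time gave *hbegfa* 1.24 to 1.74 at 0 dpa, -1.17 to -1.04 for 1 dpa against 0 dpa, -0.71 to -0.21 at 2 dpa, 1.91 to 2.61 in whole-liver BECs, -1.80 to -1.66 in hepatocytes, -1.94 to -1.68 in macrophages at 1 dpa and -0.22 to 0.69 in neutrophils. It gave *nrg1* 2.44 to 3.10, *erbb2* -3.36 to -2.30, *erbb3a* -1.99 to -1.67, and *hbegfb* in thrombocytes 4.72 to 6.26 against BECs and 0.50 to 0.79 against mock.

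With the replicate number as a block, 36 of 37 called results were kept, and *erbb2* in 7 dpa BECs was lost (-8.88, adjusted p = 0.063). The numbers did not pair the libraries (correlation of deviations -0.15 to 0.13 over 45 pairs). Of 1045 counts of called genes under an alternative, 206 were over 1.5 times from the count as tested. Thrombocytes against BECs at 0 dpa had 834 called genes, 1420 with default TMM, 2357 after background subtraction, 192 with types from each cell's markers and 421 to 593 without 1 library. Neutrophils at 0 dpa against mock had 32, with 347, 16, 69 and 19 to 27 in the same order and 59 with raw-count clusters. No value was given by 9 pairs of a member result and an alternative. The 6 *egfra* UMIs of mock BECs limit what can be said of that receptor.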

Other observations

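Over 44 combinations of cell type and condition and 13427 genes searched, the genes whose levels followed *hbegfa* most closely were *actb1*, which encodes a cytoplasmic actin (Pearson's r 0.73, Spearman's rho 0.66), *cirbpa* (0.69 and 0.66), *cfl1l*, a cofilin-like gene (0.68 and 0.69), *psmb7*, a proteasome subunit (0.67 and 0.66), and *atf3*, a stress-induced transcription factor (0.67 and 0.63). For *erbb2* they were *unc13ba* (0.73 and 0.74), *unc5b* (0.73 and 0.77), *zeb1b* (0.72 and 0.68), *arhgap23a* (0.72 and 0.71) and *spag9a* (0.72 and 0.74). These correlations are descriptions across combinations that share libraries and depth, and carry no test.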
